A study of Zea mays with 50 samples.

Results

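The transcripts of 3 genes that make or guide small RNAs in maize, dcl1, dcl4 and lbl1, were followed through 50 libraries of leaf protoplasts (plant cells whose wall has been digested away). They were taken by row ID from a table of expression values, where they fill 4 of 30213 rows: dcl1 (GRMZM2G040762), lbl1 (GRMZM2G020187) and a pair of rows named dcl4 (GRMZM2G024466 and GRMZM2G050882). The study asked whether putative regulators of reproductive phasiRNAs, small RNAs cut in phase from long precursors in anthers, change transcription when expressed in leaf cells. Polyadenylated RNA was sequenced with a strand-marking kit from protoplasts of inbred B73 that expressed GFP alone or 1 of 23 regulators fused to GFP, in 4 protoplast preparations (preps).

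All cells were B73, came from leaves of dark-grown seedlings 10 to 12 days after germination at 25 °C, with more than 10 seedlings pooled for each isolation, and carried GFP. Every construct, the control with GFP alone included, stood under the 35S promoter, which is active in most plant cell types. GFP stood at the N-terminus of 22 regulators and at the C-terminus of ZFL2. Preps 1 and 3 received bHLH103, CSD4, DOF25, HSF2, NAC29, NAC119, OCL4, TCP23, ZFL2, ZHD5 and ZIM13. Preps 2 and 4 received ABI5, bHLH97, DOF7, EREB50, EREB69, GBP15, MYB131, NAC25, OFP9, WRKY81, ZFL1 and ZHD4. Each regulator therefore had 2 libraries from separate preps, set against the 2 GFP libraries of those preps, and 11 or 12 regulators shared the same GFP libraries. Libraries of 1 prep came from the same protoplasts, so p-values against GFP measure the spread between preps and not between plants. P-values between preps, and of correlations within preps, measure only the spread between libraries of those preps.

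Dicer-like enzymes cut double-stranded RNA into small RNAs. DCL1 cuts folded precursors into microRNAs. DCL4 cuts the long double strands that the polymerase RDR6 makes, with the help of the SGS3 protein, from transcripts a microRNA has marked, and so releases trans-acting siRNAs and other phased siRNAs. The SGS3 of maize is encoded by lbl1 (leafbladeless1), named for mutants whose leaves lose the identity of the upper leaf surface. In that pathway, trans-acting siRNAs from TAS3 precursors lower the transcripts of a subset of auxin response factors.

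The libraries held 6830505 to 11875644 reads in 48 cases, and the EREB69 libraries of preps 2 and 4 held 28153191 and 29950322. Levels are given in RPKM, read numbers scaled to the length of the row and the depth of the library, and can therefore be compared between rows. Differences are log2 changes on the scale log2(RPKM + 0.5), with the standard error of limma, and understate the change of rows at low RPKM. A regulator was said to change a row at a Benjamini-Hochberg adjusted p below 0.05 over all rows tested and a log2 change of at least 1 in either direction. Only rows that reached 1 RPKM in 2 or more libraries were tested, which kept 28122 rows, among them dcl1 and both dcl4 rows but not lbl1. The label of leaf cells was checked against markers, with mixed results. Of mesophyll, pdk1, its pyruvate orthophosphate dikinase, lay at 173 ± 84.9 RPKM (SD, n = 50) and mdh6 at 24.1 ± 5.61, but pep1 at only 0.392 ± 0.179. The pdk1 row was itself called in MYB131, at 427 ± 129 against 163 ± 54.4 RPKM in GFP (SD, n = 2), where 2.35% of rows were called. Of bundle sheath, me3 lay at 9.44 ± 1.62 and rbcs1 at 5.63 ± 3.55 RPKM. Of the epidermis, ocl1 lay at 16.0 ± 2.82, ocl3 at 2.4 ± 0.531, ocl5 at 1.01 ± 0.390 and gl1 at 0.25 ± 0.143 RPKM. Of the anther markers, ocl4, itself 1 of the regulators expressed, had a median of 0, but ms32 lay at 17.2 ± 1.54 RPKM, above me3 and ocl1. In such mixed cells a smaller number of expressing cells and less RNA per cell cannot be told apart.

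The name table raised a limit on dcl4 before any comparison. It lists GRMZM2G024466, GRMZM2G050882 and a further row, GRMZM2G160473, as older IDs of 1 gene, dcl4. The row lengths recovered from the values were 1727, 788 and 1461 bases, against 4670 for dcl1 and 2489 for lbl1. By this listing alone the dcl4 rows share 1 gene, so they are not taken as separate evidence on it. GRMZM2G160473 is described beside the chosen rows as the third dcl4 row. How reads shared between related genes were counted, and whether the strand was used, is not given in the sources used here.

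Transcripts of dcl1 were the most abundant of the 4 rows and the steadiest. The level of dcl1 was 25.0 ± 2.02 RPKM (SD, n = 50), from 20.8 in NAC119 of prep 1 through a median of 25.0 to 28.5 in MYB131 of prep 2. These values rested on 698 to 3534 reads per library, with a median of 1120. Only 3.7% of the rows tested had a smaller SD over libraries on the log2 scale, and 82.3% of the rows tested had a lower mean level. The coefficient of variation was 8.09%, where counting error alone would give 2.99%.

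Both chosen dcl4 rows sat near the middle of the rows tested, above 52.2% and 51.7% of them, at nearly the same level. GRMZM2G024466 averaged 6.52 ± 1.23 RPKM (SD, n = 50), from 4.17 in OFP9 of prep 4 through 6.33 to 9.47 in MYB131 of prep 4. GRMZM2G050882 averaged 6.37 ± 1.31 RPKM, from 3.15 in TCP23 of prep 3 through 6.33 to 9.86 in MYB131 of prep 4. The same library, MYB131 of prep 4, was thus the highest for both rows. They were counted from far fewer reads than dcl1: 56 to 329 per library for GRMZM2G024466 and 25 to 158 for GRMZM2G050882. Counting error alone would give coefficients of variation of 9.61% and 14.4%, beside the 18.9% and 20.5% measured, so it makes up a larger part of the spread than for dcl1. The third dcl4 row was higher, at 20.7 ± 3.45 RPKM, from 13.7 in GFP of prep 1 to 29.4 in OCL4 of prep 3.

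The lbl1 transcript was near the limit of what these libraries could count. It averaged 0.276 ± 0.129 RPKM (SD, n = 50), from 0 in WRKY81 of prep 4 through a median of 0.271 to 0.602 in EREB69 of prep 4. A library held 0 to 46 lbl1 reads, with a median of 6, and all 50 libraries together held 375. Pooled over all libraries the level was 0.293 RPKM, with an exact 95% Poisson interval of 0.264 to 0.324 that covers counting error only. Counting error alone would give a coefficient of variation of 38.9%, beside the 46.8% measured. Only 4 libraries passed 0.5 RPKM, and 1 was at 0, where a count of 0 allows up to 0.156 RPKM (3 reads).

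Per length, dcl1 led the chosen rows and lbl1 came last in every library. The dcl1 row stood above both chosen dcl4 rows and above lbl1 in 50 of 50 libraries. Its mean level was 3.83 times that of GRMZM2G024466, 3.92 times that of GRMZM2G050882 and 90.6 times that of lbl1. Between the chosen dcl4 rows there was no order: GRMZM2G024466 was the higher in 25 libraries and GRMZM2G050882 in the other 25, with a log2 ratio of 0.04 ± 0.289 (SD, n = 50). The third dcl4 row stood 3.17 and 3.25 times above them and closer to dcl1, which was the higher of that pair in 46 of 50 libraries. With the reads and lengths of the 3 dcl4 rows summed, a choice made after seeing the data, dcl4 lay at 11.7 ± 1.43 RPKM and below dcl1 in all 50 libraries, by a log2 ratio of 1.07 ± 0.155 (SD).

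**Figure D1:**
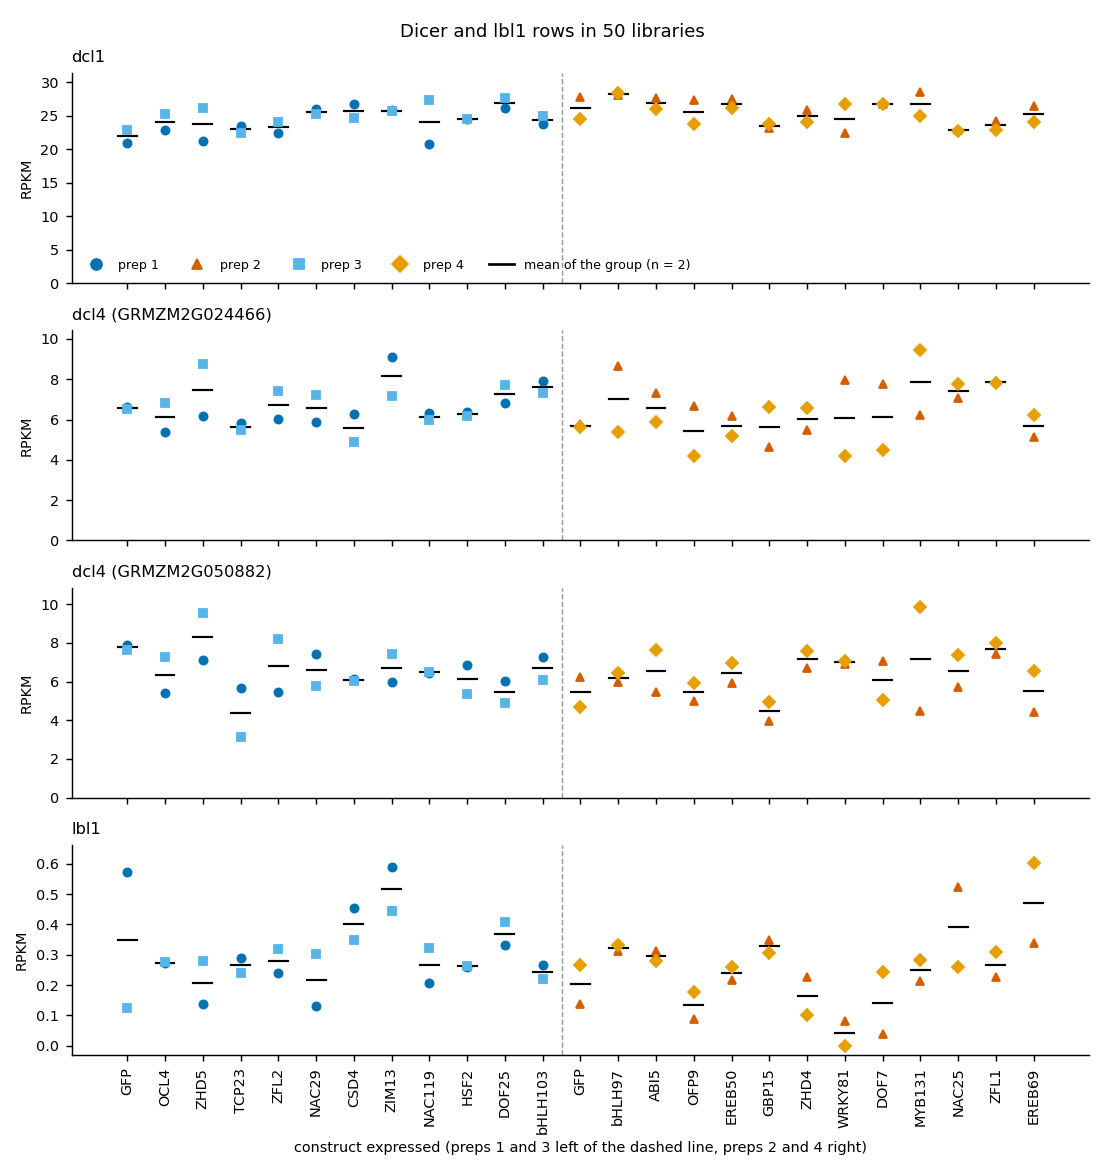
RPKM of dcl1, both chosen dcl4 rows and lbl1 (vertical axes, linear) in each of 50 libraries, by the construct expressed (horizontal axis) and prep (colour and shape); bars mark the mean of the 2 libraries of a group. The dcl1 points lie between 20.8 and 28.5 RPKM in every group, the dcl4 points between 3.15 and 9.86, and the lbl1 points between 0 and 0.602.

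Ordered by their means, the 25 groups of dcl1 ran from 21.9 ± 1.33 RPKM in GFP of preps 1 and 3 (SD, n = 2) to 28.2 ± 0.189 in bHLH97. At the low end, NAC25 averaged 22.8, TCP23 23, ZFL2 23.3, GBP15 23.4, ZFL1 23.6 and ZHD5 23.7 RPKM. In the middle, OCL4 and NAC119 averaged 24.1, bHLH103 24.3, HSF2 and WRKY81 24.5, ZHD4 25.0, EREB69 25.3, OFP9 25.5, NAC29 25.6, and CSD4 and ZIM13 25.7. Above these came GFP of preps 2 and 4 at 26.2, DOF7 and MYB131 at 26.7, EREB50 at 26.8, and ABI5 and DOF25 at 26.9. Of the 24 steps between neighbours in this order, 23 joined groups whose libraries overlapped. The exception was the step from DOF25 to bHLH97, whose libraries at 28.1 and 28.4 RPKM lay above the 26.2 and 27.6 of DOF25. Sorting by the means puts like groups side by side, so neighbours overlap almost by construction. Such counts, here and for the other rows below, only describe the order and have no share over all rows beside them. The GFP group of preps 1 and 3 was the lowest of all 25, a point that bears on each comparison made against it.

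No regulator passed the test for dcl1 or for either chosen dcl4 row, and lbl1 was too low to enter it. In 69 tests (3 rows in 23 regulators), limma called 0 at an adjusted p below 0.05, where 0.208% of all tests were called. An unadjusted p below 0.05 was reached in 2 of the 69, or 2.9%, beside 7.6% of all tests, and the lowest adjusted p was 0.34. Tested on whole reads with limma-voom, the same rows gave 0 calls, beside 1243 over all rows. They had 2 unadjusted p below 0.05 and a lowest adjusted p of 0.426. With prep as a block, limma again gave 0 calls, beside 2040 over all rows. Here 5 of the 69 tests had an unadjusted p below 0.05, more than without the block, and the lowest adjusted p was 0.105. The share of all tests at an unadjusted p below 0.05 was not computed for either fit. A test of any difference among the groups likewise gave 0 calls for the 3 rows, with adjusted limma p-values of 0.886 to 1 over the 12 groups of preps 1 and 3 (0.736% of all rows called) and 0.76 to 0.887 over the 13 groups of preps 2 and 4 (3.58% called). None of these 6 tests had an unadjusted p below 0.05, beside 8.57% and 12.3% of all rows.

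For dcl1, the microRNA-producing Dicer, the intervals were narrow enough to bound the change. DOF25 gave the highest value: its libraries held 26.2 RPKM in prep 1 and 27.6 in prep 3, both above the 21.0 and 22.9 of GFP. The log2 difference was 0.29 ± 0.112 (SE), with an adjusted limma p of 0.34, and 0.14 when the other regulators of these preps served as the reference. At the other end, NAC25 held 22.9 and 22.8 RPKM in preps 2 and 4, both below the 27.8 and 24.5 of GFP. The log2 difference of -0.19 ± 0.112 did not pass the test either. It was -0.10 without GFP of prep 2 and -0.28 without GFP of prep 4. The bHLH97 libraries, the highest group, held 28.1 and 28.4 RPKM, above the same GFP libraries. Over the 23 regulators the 95% intervals of dcl1 ran from -0.42 to 0.52, so none reached a change of 1 in either direction.

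Against GFP, 11 of 23 regulators had dcl1 libraries that did not overlap with those of GFP, beside 36.8% of all tests. All 11 regulators of preps 1 and 3 had a positive dcl1 difference, from 0.07 to 0.29, while 5 of 12 were positive in preps 2 and 4. The 11 share the same GFP libraries, those of the lowest dcl1 group, so these signs are not independent of each other. GFP itself was lower in preps 1 and 3 (21.0 and 22.9 RPKM) than in preps 2 and 4 (27.8 and 24.5), with no overlap. This difference of -0.25 ± 0.112 on the log2 scale had an adjusted limma p of 0.454 and an unadjusted one of 0.0356, where limma called 0% of all rows and 10.4% had an unadjusted p below 0.05. It was -0.16 without GFP of prep 2 and -0.34 without GFP of prep 4. Without GFP of prep 1 it was -0.19, and without GFP of prep 3 -0.31.

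The dcl4 row GRMZM2G024466 had wider intervals than dcl1. ZFL1 was furthest above GFP, with 7.91 and 7.81 RPKM in preps 2 and 4 against 5.76 and 5.61. Both ZFL1 libraries were higher, and the log2 difference of 0.43 ± 0.264 (SE) did not pass the test. CSD4 was furthest below, with 6.26 and 4.87 RPKM in preps 1 and 3 against 6.62 and 6.53, a log2 difference of -0.23 ± 0.264. It rested mainly on prep 3, at -0.07 without CSD4 of that prep and -0.40 without CSD4 of prep 1. The lowest adjusted limma p over the 23 regulators was 0.522. The 95% intervals ran from -0.77 to 0.98, so the upper end, that of ZFL1, lay only just within a change of 1. With a pseudocount of 0.1 the ZFL1 difference was 0.46. Its interval was not computed there, so a 2-fold change was not firmly bounded. The libraries of 11 of 23 regulators did not overlap with GFP, beside 36.8% of all tests.

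Among the group means of GRMZM2G024466, the lowest was OFP9 at 5.42 ± 1.77 RPKM (SD, n = 2) and the highest ZIM13 at 8.14 ± 1.38. CSD4 averaged 5.56, GBP15 5.61, TCP23 5.63, EREB50 5.66, EREB69 5.67 and GFP of preps 2 and 4 5.69 RPKM. ZHD4 averaged 6.02, WRKY81 6.08, OCL4 and DOF7 6.11, NAC119 6.15, HSF2 6.25, NAC29 6.55, GFP of preps 1 and 3 6.57, ABI5 6.59 and ZFL2 6.72. Above 7 RPKM came bHLH97 at 7.01, DOF25 at 7.26, NAC25 at 7.43, ZHD5 at 7.46, bHLH103 at 7.62, MYB131 at 7.85 and ZFL1 at 7.86. All 24 neighbouring pairs in this order overlapped. Several groups were as wide as the whole order: WRKY81 held 7.97 and 4.19 RPKM in its 2 preps, DOF7 7.74 and 4.49, and bHLH97 8.65 and 5.38.

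The other dcl4 row, GRMZM2G050882, gave the lowest unadjusted p of the 69 tests. TCP23 held 5.64 RPKM in prep 1 and 3.15 in prep 3, both below the 7.91 and 7.61 of GFP. The log2 difference was -0.80 ± 0.273 (SE), with a 95% interval of -1.36 to -0.24, an unadjusted limma p of 0.00648 and an adjusted p of 0.634. The value rested mainly on prep 3, since the difference was -0.43 without TCP23 of that prep and -1.18 without TCP23 of prep 1. In the same TCP23 libraries, GRMZM2G024466 held 5.81 and 5.46 RPKM against 6.62 and 6.53 in GFP. ZFL1 was furthest above GFP, with 7.41 and 7.98 RPKM against 6.24 and 4.66. The log2 difference of 0.47 ± 0.273 did not pass the test, and it was 0.28 without GFP of prep 4 and 0.67 without GFP of prep 2.

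For GRMZM2G050882 the intervals of 3 regulators reached past a change of 1, and a 2-fold change could not be bounded for these. The libraries of 12 of 23 regulators did not overlap with GFP, beside 36.8% of all tests. GFP of preps 1 and 3 was the next to highest of the 25 groups, at 7.76 ± 0.212 RPKM (SD, n = 2), and 10 of the 11 regulators compared with it were negative. In preps 2 and 4 GFP averaged 5.45 ± 1.11 RPKM and 10 of 12 regulators were positive. Between these GFP groups the log2 difference was 0.49 ± 0.273, with an adjusted limma p of 0.532. It was 0.29 without GFP of prep 4 and 0.68 without GFP of prep 2. For GRMZM2G024466 the difference between the GFP groups was 0.19 ± 0.264, with an adjusted limma p of 0.808.

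The group means of GRMZM2G050882 ran from 4.40 ± 1.76 RPKM (SD, n = 2) in TCP23 and 4.46 ± 0.714 in GBP15 to 8.33 ± 1.69 in ZHD5. The step from GBP15 to OFP9, at 5.44, joined libraries that did not overlap, and the other 23 neighbouring pairs overlapped. DOF25 averaged 5.44, EREB69 5.49, DOF7 6.07, CSD4 6.08, HSF2 6.10, bHLH97 6.18, OCL4 6.34, EREB50 6.46, NAC119 6.47, ABI5 6.54, NAC25 6.55, NAC29 6.58, and ZIM13 and bHLH103 6.68 RPKM. Higher means were found in ZFL2 at 6.82, WRKY81 at 6.99, ZHD4 at 7.15, MYB131 at 7.17 and ZFL1 at 7.69. The MYB131 group spanned most of the range by itself, with 4.48 RPKM in prep 2 and 9.86 in prep 4.

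The third dcl4 row did not pass the test in any regulator, with 0 calls, no unadjusted p below 0.05 and a lowest adjusted limma p of 0.481. Its highest difference was that of NAC29, at 0.47 ± 0.260 (SE), with 22.9 and 25.6 RPKM in preps 1 and 3 against 13.7 and 21.8 in GFP. That GFP group was the next to lowest of the 25, and GFP of prep 1 the lowest of all 50 libraries. All 11 regulators of preps 1 and 3 were positive, from 0.15 to 0.47, beside 6 of 12 in preps 2 and 4. The 11 share the same GFP libraries, on which the NAC29 value of the summed row rests too. With the 3 dcl4 rows summed to 1, the differences ran from -0.10 in GBP15 to 0.26 in NAC29, each with an SE of 0.178, and the lowest adjusted limma p was 0.568. As 1 row, dcl4 was therefore also without a call, and it had no unadjusted p below 0.05.

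**Figure D2:**
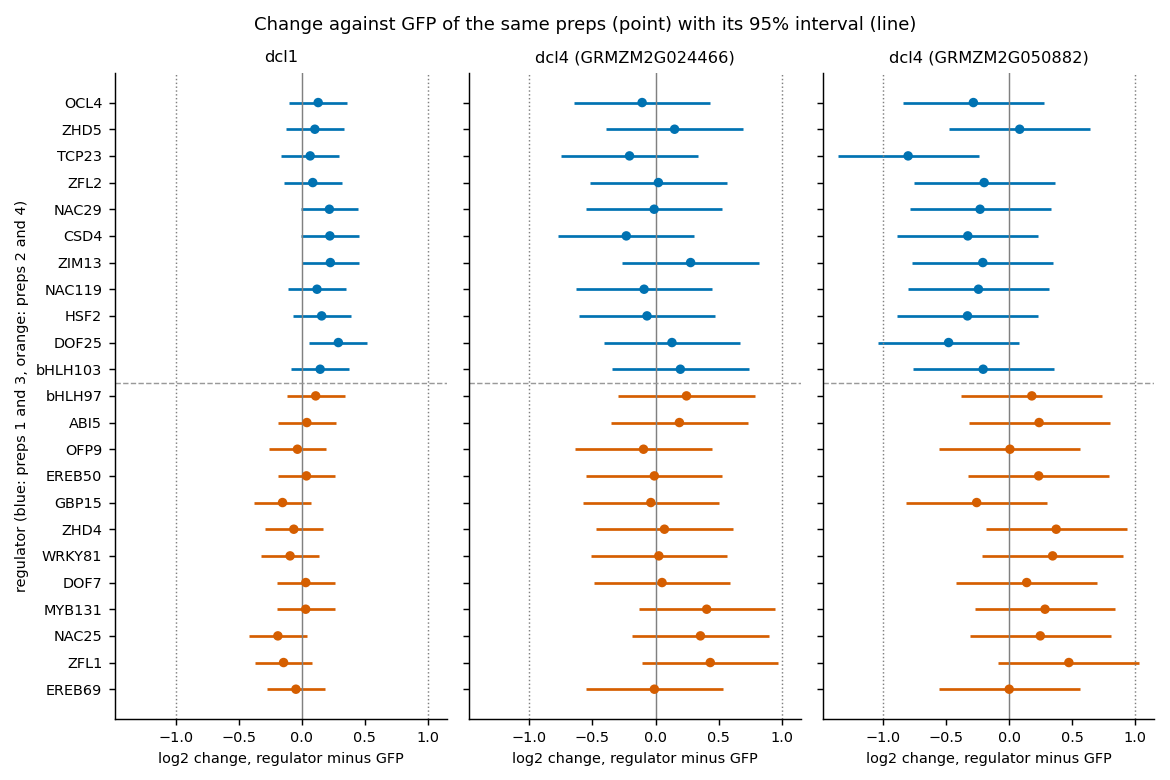
Log2 difference on the scale log2(RPKM + 0.5) between each of 23 regulators and GFP of the same preps (points) with the 95% interval of limma (lines), for dcl1 and both chosen dcl4 rows; dotted lines mark a change of 1 in either direction. The dcl1 intervals run from -0.42 to 0.52, and the point furthest from 0 is TCP23 for GRMZM2G050882 at -0.80.

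For lbl1, the partner of RDR6, only counts of a few reads could be compared. ZIM13 had the highest group mean, with 26 reads and 0.518 RPKM pooled over its libraries (exact 95% Poisson interval 0.338 to 0.759, counting error only). Its libraries held 0.589 and 0.444 RPKM in preps 1 and 3, where GFP held 0.574 and 0.123. The ZIM13 and GFP libraries thus overlapped. EREB69, with its deeper libraries, held 70 reads and 0.475 RPKM pooled (interval 0.37 to 0.60). Its libraries held 0.338 and 0.602 RPKM in preps 2 and 4, both above the 0.138 and 0.268 of GFP. The libraries of bHLH97, ABI5 and GBP15 were also above both GFP libraries, and those of WRKY81 below both. These GFP libraries rested on 3 and 6 lbl1 reads. WRKY81 was lowest, with 2 reads in all: 0.0813 RPKM in prep 2 and 0 in prep 4, an interval of 0.00552 to 0.165 for the pooled 0.0456 RPKM.

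The intervals of 20 of 25 groups, which cover counting error only, held the pooled lbl1 level of 0.293 RPKM. Those of WRKY81 (up to 0.165), DOF7 (up to 0.276) and OFP9 (up to 0.292) lay below it. Those of ZIM13 (from 0.338) and EREB69 (from 0.37) lay above it, and EREB69 gave 70 of the 375 reads behind the pooled level. In the order of the groups, the step from WRKY81 to OFP9, at 0.134 ± 0.0624 RPKM (SD, n = 2), joined libraries that did not overlap, and the other 23 did. With no filter on low values, so that all 30213 rows were tested, limma called lbl1 in 0 of 23 regulators, with 1 unadjusted p below 0.05 and a lowest adjusted p of 0.439. Its differences then ran from -0.38 in WRKY81 to 0.46 in EREB69, each with an SE of 0.202. At this depth, changes of lbl1 within these counting intervals were not detectable.

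Preps could be compared within groups, since every construct was present in both preps of its pair. Each side of such a test is 1 prep, so its p-value applies to those preps only. Neither dcl1, a chosen dcl4 row nor lbl1 passed a test between preps. Between preps 1 and 3, limma called 0 of the 3 tested rows at an adjusted p below 0.05, where 12.7% of all rows were called, and between preps 2 and 4 again 0, where 33.4% were. None of these 6 tests had an unadjusted p below 0.05, beside 28% and 43.2% of all rows.

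Levels of dcl1 averaged 23.8 ± 2.13 RPKM in prep 1 (SD, n = 12) and 25.1 ± 1.55 in prep 3, with the higher value in prep 3 for 7 of 12 constructs. The log2 difference, prep 3 minus prep 1, was 0.08 ± 0.045 (SE) with an adjusted limma p of 0.273, and an exact two-sided sign-flip permutation test over the 12 pairs gave p = 0.0884, 1 of 8 such tests on the chosen rows. In prep 2 dcl1 averaged 26.1 ± 2.17 RPKM (n = 13) and in prep 4 25.0 ± 1.67, lower in prep 4 for 10 of 13 constructs. That log2 difference was -0.06 ± 0.039, with an adjusted limma p of 0.257 and an exact sign-flip permutation p of 0.105. The groups of libraries overlapped widely in both comparisons.

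GRMZM2G024466 averaged 6.55 ± 1.02 RPKM in prep 1, 6.79 ± 1.06 in prep 3, 6.67 ± 1.23 in prep 2 and 6.10 ± 1.56 in prep 4, with adjusted limma p-values of 0.748 and 0.415. GRMZM2G050882 averaged 6.47 ± 0.830 RPKM in prep 1 and 6.48 ± 1.67 in prep 3, with an adjusted limma p of 0.881. It was higher in prep 4 than in prep 2 for 11 of 13 constructs, at 6.77 ± 1.42 against 5.79 ± 1.09 RPKM. The log2 difference of 0.20 ± 0.10 (SE) had an adjusted limma p of 0.129 and an exact sign-flip permutation p of 0.0708, so that it did not pass the test. For lbl1 the exact sign-flip permutation test gave p = 0.868 between preps 1 and 3 and p = 0.487 between preps 2 and 4.

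The third dcl4 row, in contrast, passed the test in both pairs and in opposite directions. Limma called 12.7% of all rows between preps 1 and 3 and 33.4% between preps 2 and 4. The third row rose from 19.6 ± 2.82 RPKM in prep 1 to 24.3 ± 2.62 in prep 3, higher in 12 of 12 constructs. On the log2 scale it rose by 0.31 ± 0.067 (SE), with an adjusted limma p of 0.00964. From prep 2 to prep 4 it fell from 21.3 ± 2.58 to 17.8 ± 2.1 RPKM, lower in 10 of 13 constructs, a log2 difference of -0.25 ± 0.076 with an adjusted limma p of 0.0172. The third row gave 15618 reads, beside 5751 for GRMZM2G024466 and 2546 for GRMZM2G050882, so a sum of the 3 rows largely follows it. Summed to 1 row, dcl4 differed by 0.21 ± 0.061 between preps 1 and 3, with an adjusted limma p of 0.0386. Between preps 2 and 4 it differed by -0.17 ± 0.043, with an adjusted limma p of 0.00732. The dcl4 result between preps thus depends on which of its rows are read, and the chosen rows taken alone did not pass the test.

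**Figure D3:**
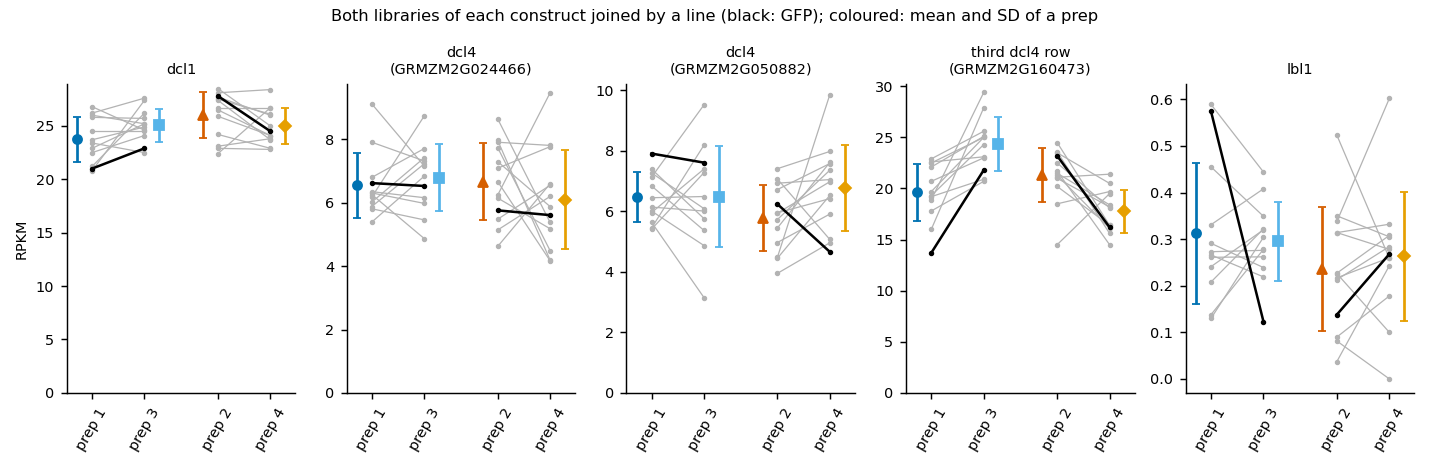
RPKM (vertical axes, linear) of dcl1, the 3 dcl4 rows and lbl1 by prep; a line joins the libraries of 1 construct, GFP in black, and coloured symbols give the mean and SD over the 12 or 13 libraries of a prep. The third dcl4 row rises from 19.6 to 24.3 RPKM between preps 1 and 3 and falls from 21.3 to 17.8 between preps 2 and 4, and no other panel shows a difference past the test.

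Across libraries, the chosen dcl4 rows moved together and dcl1 moved with the third dcl4 row. After the mean of each prep was subtracted from the log2 values, GRMZM2G024466 and GRMZM2G050882 had Pearson's r of 0.507 over 50 libraries, with p = 0.00025 by a permutation test within preps and 0.00075 adjusted over 6 pairs of rows. Spearman's rho was 0.464 (permutation p = 0.001, adjusted 0.003), and r was 0.489 without the 2 libraries farthest from the median. Within preps 1, 2, 3 and 4, r was 0.193, 0.632, 0.529 and 0.567, so the relation was weakest in prep 1. The 2 libraries of a regulator and the libraries of a prep are not independent, which the permutation takes into account only for preps.

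The dcl1 row and the third dcl4 row had r of 0.655, with permutation p = 1e-05, the smallest that 100000 permutations can give, and 6e-05 adjusted over the 6 pairs. Spearman's rho was 0.655 too, with a permutation p of 2e-05 and an adjusted value of 0.00012, and r was 0.64 without the 2 farthest libraries. Within preps 1, 2, 3 and 4, r was 0.761, 0.609, 0.602 and 0.597, of one sign in each. For neither chosen dcl4 row did the relation with dcl1 pass the test, with r of -0.02 for GRMZM2G024466 and -0.02 for GRMZM2G050882, both with an adjusted permutation p of 0.895. The same held for their relation with the third row of the gene, with r of -0.189 and -0.0916 and adjusted permutation p-values of 0.381 and 0.776.

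**Figure D4:**
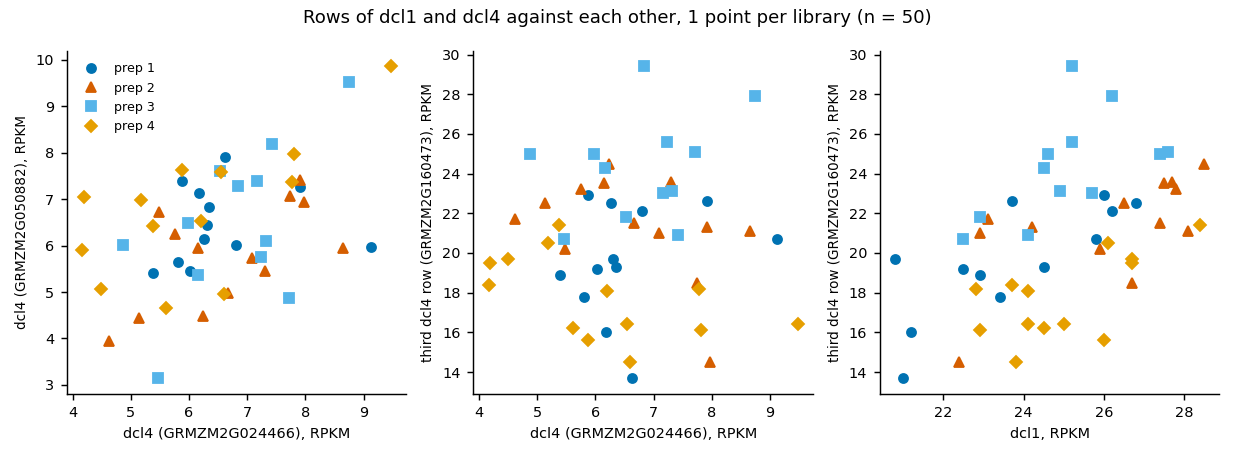
RPKM of pairs of rows in each of 50 libraries (1 point each, by prep), for the chosen dcl4 rows, for GRMZM2G024466 and the third dcl4 row, and for dcl1 and the third dcl4 row; axes do not start at 0. The prep-centred r on the log2 scale is 0.507, -0.189 and 0.655.

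Other genes split over several rows give a scale for this. Among 277 genes of the name table with 2 or more rows at a mean of at least 5 RPKM, 305 pairs of rows had a median prep-centred r of 0.394, with quartiles of 0.0598 and 0.853. The pair of chosen dcl4 rows lay above 56.4% of these pairs, close to the middle. The pairs that join GRMZM2G024466 and GRMZM2G050882 with the third row lay above 5.9% and 12.5%, near the low end. In level the third row stood 3.17 and 3.25 times above the others, more than in 85.9% and 86.9% of the pairs, whose median ratio was 1.56. These are descriptions across genes with no test, and whether all 3 rows belong to the same transcript was not tested.

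Among 20843 rows with a mean of at least 2 RPKM, the ones most like dcl1 over the 50 libraries were GRMZM2G409865 (prep-centred r 0.755), AC198481.3_FG004 (0.751) and GRMZM2G089565 (0.735). Of rows with a name, GRMZM2G330298 (0.733), BRK3 (0.665) and Med13 (0.657) were the most like it, and the third dcl4 row took place 26 of all rows. For GRMZM2G024466 the most alike were GRMZM5G827463 (0.771), GRMZM2G329014 (0.706) and GRMZM2G331533 (0.698), and by name si618006e06 (0.648), gpi (0.625) and Cullin-1 (0.625). For GRMZM2G050882 they were GRMZM2G331533 (0.661), AC235534.1_FG005 (0.647) and GRMZM5G807734 (0.636), and by name si618006e06 (0.595), RBR1 (0.551) and TIDP3739 (0.549). The lists of both chosen dcl4 rows therefore share GRMZM2G331533 and si618006e06. Each chosen dcl4 row was itself less like the other than these, at place 323 for GRMZM2G024466 and place 61 for GRMZM2G050882.

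In the rest of a small RNA pathway list 1 row passed the test. The list was made by gene name and held 9 rows, the 4 chosen rows and the third dcl4 row included. Of these, 7 were tested in 23 regulators. Of these 161 tests limma called 1, against 0.208% of all tests, and the median log2 difference was 0.03, beside -0.0045 over all rows. The call was GRMZM2G113476, which bears the symbol HST, in EREB69, where 1.22% of all rows were called: its libraries averaged 17.3 ± 4.74 RPKM (SD, n = 2) against 4.40 ± 0.362 in GFP, a log2 difference of 1.84 ± 0.236 (SE) with an adjusted limma p of 5.89e-06. The name table gives no full name for this symbol, so its role is not stated here. The row entered the list by symbol alone, and whether it belongs to the small RNA pathway was not tested.

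Of the partners of DCL4 and LBL1, rdr6, the polymerase that makes the double strand, lay at 3.65 ± 0.859 RPKM (SD, n = 50). The argonaute1 row, an effector that binds microRNAs, lay at 6.05 ± 0.914 RPKM, and mop1, a polymerase of the DNA methylation pathway, at 0.523 ± 0.179, too low to be tested. Neither rdr6 nor argonaute1 passed the test in any regulator, with lowest adjusted limma p-values of 0.682 and 0.64 and no unadjusted p below 0.05. Both were higher in prep 4 than in prep 2, where limma called 33.4% of all rows: rdr6 in 13 of 13 constructs, at 4.26 against 2.88 RPKM with a log2 difference of 0.49 ± 0.076 (SE) and an adjusted limma p of 0.00021. For argonaute1 it was 12 of 13, at 7.06 against 5.69 RPKM, 0.30 ± 0.059 and an adjusted limma p of 0.00143. Between preps 1 and 3 neither passed the test: rdr6 was higher in prep 3 in 2 of 12 constructs, at -0.20 ± 0.102 with an adjusted limma p of 0.226, and argonaute1 in 7 of 12, at -0.0061 ± 0.064 with an adjusted limma p of 0.965.

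Of 14 rows named as auxin response factors, 12 were tested, and limma called 1 of 276 tests, against 0.208% of all tests. An unadjusted limma p below 0.05 was reached in 26 of the 276, or 9.42%, beside 7.6% of all tests. The call was ARF18 in NAC29, where 0.96% of all rows were called. It lay at 27.1 ± 4.66 against 11 ± 0.436 RPKM, with a log2 difference of 1.25 ± 0.146 and an adjusted limma p of 5.47e-06. Whether ARF18 is among the factors that trans-acting siRNAs lower was not tested. The list was made by symbol, and its row arf1 (GRMZM2G395844) may be another gene of that symbol. ARF3 lay at 0.202 ± 0.326 RPKM, too low to be tested.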

How the data were processed

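The deposited table gives RPKM for 30213 rows in 50 libraries. Per the submitters' processing notes, the tools named are HISAT2 2.1.0, featureCounts of Subread 1.6.3 and edgeR 3.20.9, with the genome build B73 RefGen_v3; the step each served is not given in the sources used here. Reads and row lengths were recovered from the steps of the RPKM values for 30197 rows, within 0.05 reads and 0.1 base, and gave the depths. A factor of 0.939 to 1.087 per library remained in the deposited RPKM. Gene names were looked up among the older IDs listed in the RefSeq annotation of NAM-5.0, and 14595 rows matched. Its build is not that of the files, so no coordinates are given.

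A model of 25 groups was fitted to log2(RPKM + 0.5) with limma 3.58.1 in R 4.3.3, with 25 residual degrees of freedom and a variance trend, and p-values were adjusted over 28122 rows. Preps were compared with the group as a factor. Code was tested on simulated data. Labels say that a replicate number marks a shared prep, so a block for prep was tried too: in preps 1 and 3, the deviations of same-prep libraries had a median r of 0.131 over 66 pairs of groups, and in preps 2 and 4 of 0.253 over 78 pairs. Other alternatives were the pseudocount, the low-value filter, scaling, the reference, 1 model per prep pair, limma-voom on recovered reads and leaving libraries out. Permutations and intervals used scipy 1.17.1.

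The genes, lists and tests were chosen with earlier results of these data known. Beside the 4 rows, the text names pathway rows called for a regulator, the Dicer, polymerase and argonaute rows of the pathway list, and the 3 rows, and 3 named rows, of highest prep-centred correlation with each tested row. The third dcl4 row was added after its values were seen.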

Additional observations from a re-analysis of the deposited data

How the results depend on the processing

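Of 502 recomputed values over 28 results, 496 were classed as the same. For a difference this meant the same direction and side of the threshold, and for a count of calls an equal or similar number. The count of called dcl1 and dcl4 tests against GFP was 0 in all 62 alternatives, including prep as a replicate block, limma-voom and each library left out in turn, where it ran from 0 to 0. lbl1 was tested only with no filter on low values, also with 0 calls. The block changed no call among the dcl1, dcl4 and pathway rows, and over all rows it raised the calls from 1348 to 2040. The single call of the pathway list, HST in EREB69, is a comparison of the EREB69 libraries, and without them the count is 0. Between preps 1 and 3, the 0 calls became 1 when the 3 dcl4 rows were summed and 1 when the third row was counted. Between preps 2 and 4 they likewise became 1 and 1. These dcl4 alternatives were chosen after seeing the data, and both rest largely on the third row, so they are not separate results. The ARF18 call was not recomputed. With each construct left out in turn, the difference of GRMZM2G050882 between preps 1 and 3 (-0.03) ran from -0.0836 without ZFL2 to 0.0342 without TCP23, where it changed sign, and no value passed the test.

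With 2 libraries per group, the SE was 0.112 for dcl1 but 0.264 and 0.273 for the chosen dcl4 rows, so a dcl4 change had to be larger to be called. The median depth for lbl1 was 6 reads per library.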
